A study of Gallus gallus with 4 samples.

Results

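ID1, ID2, ID3 and ID4 were described here as a group, being the 4 genes of the inhibitor of DNA binding family among the 21328 genes of the count tables. They were chosen by name, not by a measured value, and all 4 were found. Their transcripts were followed across tissues set apart by marker genes, across 4 stages, and in cells that carried the ligand BMP4 or the antagonist CHRD.

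ID proteins are helix-loop-helix proteins that lack the basic region through which related factors hold DNA. They pair with the widely expressed E proteins and so keep tissue-specific bHLH factors from binding their sites. BMP ligands, acting through receptor-phosphorylated SMAD proteins, switch on ID genes in many embryonic tissues, and the secreted proteins chordin (CHRD) and noggin (NOG) bind BMPs outside the cell. In the early embryo the notochord and node are known sources of these antagonists, whereas BMP ligands are made in the lateral and caudal mesoderm and the ectoderm.

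Single-cell RNA-seq (10x 3′, with unique molecular identifiers, UMIs, that count molecules) was done on chick embryo trunks, keeping tissue from the third somite backwards. Embryos with 4, 7, 10 or 13 somites (4S, 7S, 10S and 13S) gave 1 library each, every library pooling at least 4 embryos. The labels name no treatment or mutation. The libraries are therefore both the replicates and the stages, and stages can only be described. An SD over 4 libraries measures the spread between pools of different age. A p-value sets the differences within a library against their variation between these pools, which edgeR estimates partly from all genes together.

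Of 27391 deposited cells, 25379 with at least 2500 UMIs and at most 7.5% mitochondrial counts were kept, and the 2012 removed cells were all from 7S. Median depth was lowest at 7S (3758 UMIs per cell) and 7182 to 8849 in the other libraries. Between 5 and 17 cell barcodes were shared by any pair of libraries, at most 0.273% of the smaller one. Cells were placed in 15 gates, each a combination of marker genes detected with at least 1 UMI. Most gates also excluded cells with a UMI of certain other markers, listed with the processing below. Single UMIs are often missed, so a gate can leave out cells of its tissue. In all, 12343 cells (48.6%) met no gate, and 822 that met several were left out. Why cells met no gate was not tested. The 12 gates with at least 10 cells in every library were compared. Levels are given as CPM, a gene's UMIs scaled to the summed UMIs of the cells. They allow 1 gene to be compared between groups, and the 4 genes were not ranked against each other.

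All 4 genes were detected broadly. Over all cells ID1 stood at 908 ± 245 CPM (SD, n = 4 libraries), ID2 at 608 ± 266, ID3 at 116 ± 17.9 and ID4 at 96.6 ± 14.6. After every cell was thinned to 2500 UMIs, 15.3% of cells held none of them, 29.9% held 1, 34.2% held 2, 17.3% held 3 and 3.14% held all 4. For each of the 6 pairs, cells with both genes were more frequent than the product of the single shares in 4 of 4 libraries, by ratios of 1.10 (ID1 with ID3) to 1.21 (ID2 with ID4).

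The overlap also held inside single tissues. In the somite gate the ratios were 1.27 to 1.45 and in the caudal paraxial mesoderm gate 1.16 to 1.59, above 1 in 4 of 4 libraries for every pair. In the caudal streak gate they were 1.03 to 1.09, again in 4 of 4 libraries. In the notochord gate only ID1 with ID2 (1.14) and ID1 with ID4 (1.40) were above 1 in all 4 libraries, and the other 4 pairs were above it in 2 of 4.

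ID1 was highest in the neural tube gate (SOX2 and PAX6 without TBXT). From the youngest to the oldest library it reached 1651, 2146, 1234 and 1292 CPM there. The notochord gate (NOTO and CHRD) was the lowest of the 12 gates, at 232, 285, 207 and 197 CPM in the same order. The floor plate gate, which entered no test, held 154, 210 and 200 CPM at 7S, 10S and 13S (3, 29 and 12 cells). Every neural tube value lay above every notochord value. Against the mean of the other 11 gates, ID1 was 1.14 ± 0.18 higher in the neural tube on the log2 scale (SE, adjusted p = 3.6e-06, edgeR quasi-likelihood test with Benjamini-Hochberg adjustment) and fell by 1.76 ± 0.20 in the notochord (adjusted p = 3.86e-10). It was also higher in the blood and vessel gate (0.83, adjusted p = 2.52e-05), the surface ectoderm gate (0.83, 2.62e-05) and the caudal streak gate (0.65, 0.0011), all by the edgeR test. The determination front gate (RIPPLY2 and MEOX1), where presomitic cells begin to segment, was lower (-0.84, adjusted p = 0.000495).

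Neighbours in the order of ID1 levels had overlapping ranges over the 4 libraries, which differ in stage. The neural tube exceeded the blood and vessel gate in 3 of 4 libraries, and the blood and vessel, surface ectoderm and caudal streak gates had overlapping ranges. At the low end, ID1 in the determination front ran from 234 to 745 CPM and overlapped the endoderm and NMP gates. The NMP (neuromesodermal progenitor) gate takes cells with SOX2 and TBXT without NOTO. The lowest determination front library (13S) lay below the highest notochord library (7S). Within libraries, however, the determination front was above the notochord in 4 of 4. The same held for caudal streak above intermediate mesoderm and for somite above the NMP gate.

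**Figure D1:**
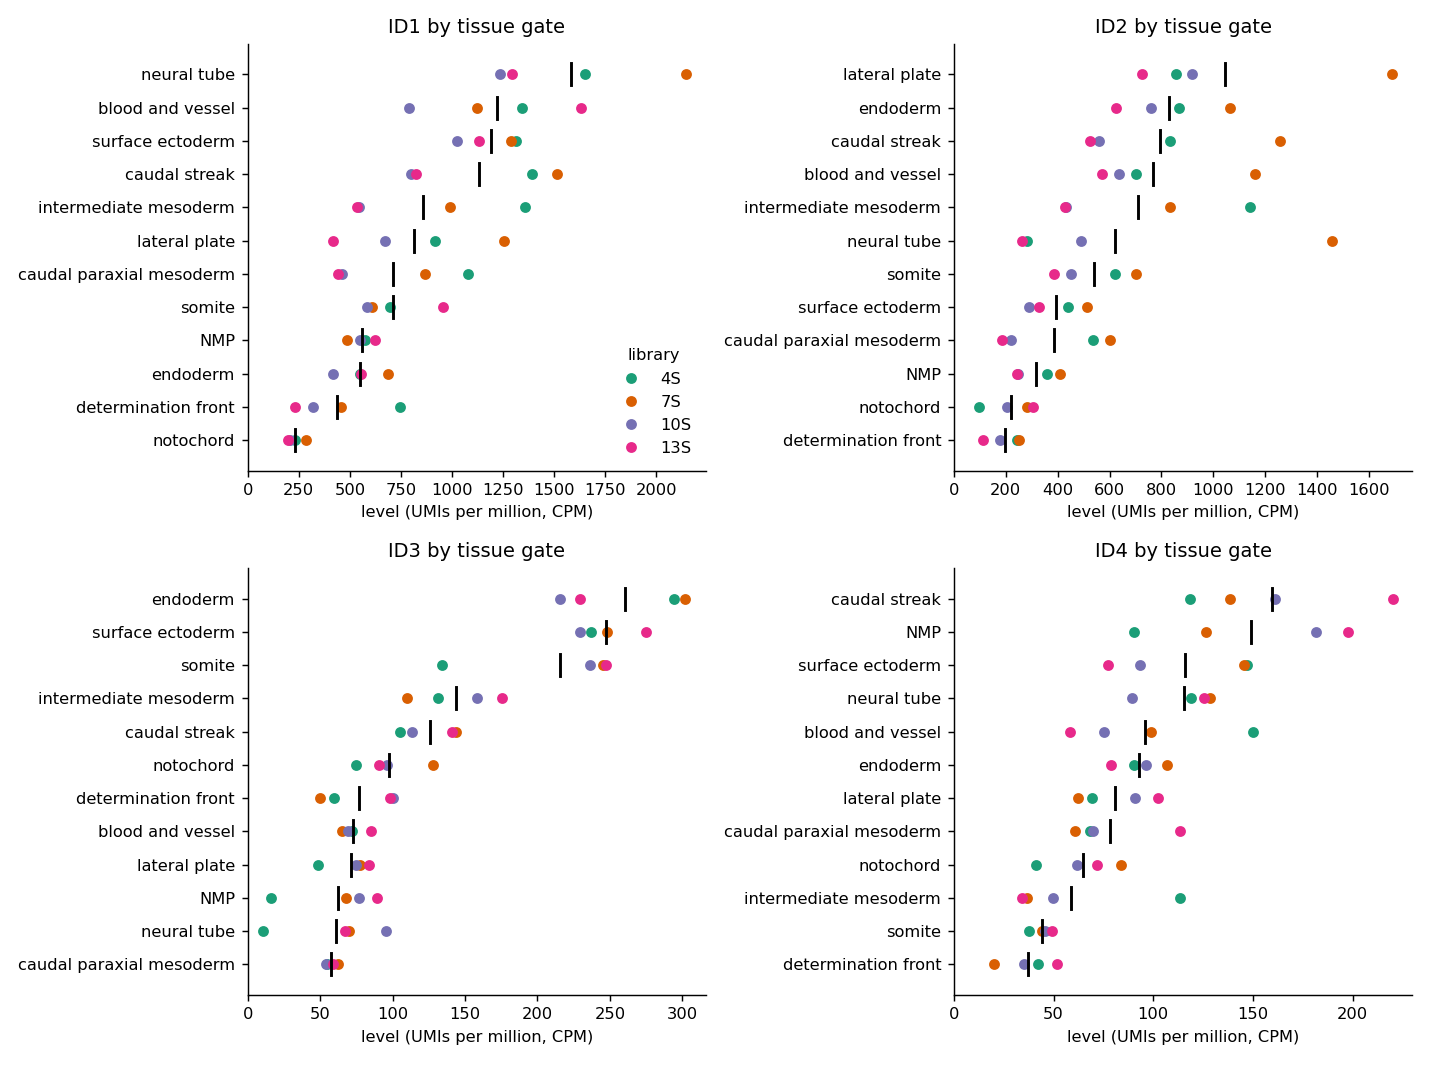
Level of each ID gene (CPM) in the 12 tissue gates, 1 point per library coloured by stage, with a black bar at the mean of 4 libraries; gates are ordered by mean within each panel. By mean, ID1 tops out in the neural tube and ID2 in the lateral plate. ID3 does so in endoderm, surface ectoderm and somite, and ID4 in the caudal streak and NMP gates.

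ID2 had another order. It was highest in the lateral plate gate (HAND1 and HAND2), at 857, 1688, 916 and 724 CPM from 4S to 13S, against 245, 250, 178 and 112 CPM in the determination front. The 2 sets did not overlap. ID2 was 1.14 ± 0.16 higher in the lateral plate (log2, SE, adjusted p = 9.5e-07, edgeR) and fell by 1.43 ± 0.20 in the determination front (adjusted p = 2.79e-07). It also rose in endoderm (0.81, adjusted p = 0.0035), caudal streak (0.71, 0.000366) and blood and vessel (0.68, 0.000727), and fell in the notochord (-1.11, 9.66e-06) and caudal paraxial mesoderm (-0.46, 0.0435), all with edgeR. The caudal streak call was lost without the 7S library (0.55, adjusted p = 0.056) and the endoderm call without 10S (0.74, 0.0664). The caudal paraxial call was lost without 10S (-0.33, 0.453) or 13S (-0.29, 0.257).

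In the neural tube gate ID2 was highest at 7S. It was 1458 CPM there in 15 cells, and 281, 489 and 262 CPM in the other 3 libraries (10, 63 and 60 cells). Over all cells ID2 was also highest at 7S (963 CPM). The part of cell number in the neural tube values was not tested.

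ID3 was highest in the endoderm, surface ectoderm and somite gates. In the surface ectoderm gate (TFAP2A and CDH1) it was 237, 248, 229 and 275 CPM from 4S to 13S, and in the endoderm gate (SOX17 with CDH1 or FOXA2) 294, 302, 215 and 229 CPM. Caudal paraxial mesoderm (MSGN1 and TBX6) held 54.7, 62.5, 53.9 and 58.6 CPM, the narrowest range of any gate, with every value below those of both these gates. The floor plate gate, which entered no test, held 154, 331 and 253 CPM at 7S, 10S and 13S (3, 29 and 12 cells). That was above endoderm at 10S and 13S and below it at 7S. ID3 was 1.42 ± 0.15 higher in endoderm (log2, SE, adjusted p = 3.19e-10, edgeR), 1.32 ± 0.11 higher in surface ectoderm (2.44e-14) and 1.02 ± 0.10 higher in the somite gate (MEOX1 and TCF15, 2.34e-12). It fell by 1.01 ± 0.12 in caudal paraxial mesoderm (2.01e-09).

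Along the paraxial gates ID3 was 57.4 ± 4.00 CPM in caudal paraxial mesoderm, 77.0 ± 25.9 at the determination front and 216 ± 54.7 in somites (SD, n = 4). The first 2 gates overlap: the determination front held 59.6, 50.1, 100 and 98.4 CPM from 4S to 13S, higher than caudal paraxial mesoderm in 3 of 4 libraries. Every somite library exceeded every determination front library. The gates were not tested against each other. ID3 was also lower in the neural tube (-0.72), lateral plate (-0.71), NMP (-0.71), blood and vessel (-0.62) and determination front (-0.46) gates, with adjusted p of 0.0131, 0.00267, 0.0178, 0.000316 and 0.00981 by edgeR. The 4S library held only 2 ID3 UMIs in the NMP gate and 1 in the neural tube gate. The NMP call was lost without 10S (-0.77, adjusted p = 0.0924) or 13S (-0.87, 0.0982), the neural tube call without 13S (-0.55, 0.295) and the determination front call without 7S (-0.36, 0.104). On counts thinned to equal depth the NMP, neural tube, lateral plate and determination front calls were all lost, the differences staying negative (adjusted p from 0.102 to 0.625, edgeR).

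On the mean of 4 libraries ID4 was highest in the caudal progenitor gates. From 4S to 13S it was 119, 139, 161 and 220 CPM in the caudal streak gate (TBXT and MSX1 without SOX2, NOTO or MSGN1). In the NMP gate it was 90.2, 127, 182 and 198 CPM. Both caudal gates were above all others at 10S and 13S only. At 4S blood and vessel (150 CPM), surface ectoderm (147) and, narrowly, neural tube (118.7) lay above both. At 7S surface ectoderm (146) did. In somites ID4 was 37.8, 44.1, 45.8 and 49.3 CPM, below every caudal streak and NMP value. The differences from the mean of the other gates were 1.03 ± 0.13 in the caudal streak (log2, SE, adjusted p = 2.96e-08, edgeR), 1.05 ± 0.21 in NMP cells (0.0007), -0.99 ± 0.17 in somites (9.22e-06) and -1.12 ± 0.21 at the determination front (6.87e-05). The NMP gate held 164 cells in all, and its ID4 call was lost without the 10S library (0.89, adjusted p = 0.11).

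Across the gates, then, the determination front was lower for 4 of the 4 genes, in a contrast where 18% of all genes tested were called. Of the 4 genes, 3 were called in the caudal streak gate (11.7% of all genes) and 3 in blood and vessel (25.5%). In 8 gates 2 genes were called: NMP (5.69% of all genes), caudal paraxial mesoderm (20.7%), somite (19.3%), lateral plate (9.18%), notochord (32.1%), neural tube (10.6%), endoderm (12.1%) and surface ectoderm (28.6%). None was called in the intermediate mesoderm gate (PAX2 with LHX1 or OSR1), where edgeR called 3.16% of all genes and ID2, ID3 and ID4 had unadjusted p of 0.0401, 0.00864 and 0.0077. The share of all genes with such unadjusted p in that gate is not given here. DESeq2 called none of the 4 there either, but without a filter on low counts edgeR called ID2 (0.41, adjusted p = 1.13e-05) and ID4 (-0.85, 0.000409), and without 4S ID4 (-1.14, 0.0081). The counts behind these shares fell by more than 1.5-fold in all 12 gates without the 10S library, for example from 421 to 190 genes in the NMP gate and from 1531 to 675 in caudal paraxial mesoderm. Each contrast tested 7400 genes, and the median log2 difference over all of them ran from -0.02 to 0.01.

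Over the 12 gates the pattern of ID1 resembled that of ID2 (Pearson r = 0.64 on log2 of mean CPM plus 1) and ran against CHRD (-0.75) and NOG (-0.75). CHRD helps to define the notochord gate. Without that gate, over 11 gates, r was 0.48 for ID1 with ID2, -0.38 for ID1 with CHRD and -0.60 for ID1 with NOG. The correlation with BMP4 itself was 0.16 for ID1, 0.40 for ID2, 0.24 for ID3 and 0.47 for ID4. Each of these values is a description of 12 points that share 4 libraries.

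Of the other response genes, SMAD6, an inhibitory SMAD induced by BMP, was closest to ID2 (r = 0.65), GATA3 to ID3 (0.67) and MSX1 to ID4 (0.81). GATA3 was sparse, at 1.85 CPM over all cells (351 UMIs). MSX2 was about as close to ID2 (0.54) as to ID4 (0.53), and so was BAMBI (0.51 with each). MSX1 defines the caudal streak gate, and r for ID4 with MSX1 was 0.77 without it. Among 6385 genes that reached 20 CPM in a gate, those close to ID1 included CACNG3 (r = 0.87), ENSGALG00000049239, HN1L and NDUFV1, and those close to ID2 included AP2B1 (0.88), RPL36AL, MRPL28 and VOPP1. The closest to ID3 were ENSGALG00000023866 (0.86), LLGL1, PREB, PLPP3 and PPM1B, and to ID4 HOXA7 (0.89), EIF3H, ELOVL5, TCF7 and HOXB9. HOXA7 and HOXB9 are posterior patterning genes: HOXA7 was 1523 CPM in the NMP gate and 28.5 in somites, a wider range than that of ID4.

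The levels of ID1 and ID2 were lower at 10S and 13S than at 4S and 7S. Those of ID3 and ID4 were higher at 13S than at 4S. ID3 was highest at 7S, but only narrowly. With each cell weighted equally it was higher at 13S (135 CPM) than at 7S (129 CPM). From 4S to 13S the ID1 level was 1106, 1131, 654 and 742 CPM. That of ID2 was 654, 963, 446 and 368 CPM. Both thus stepped down between 7S and 10S.

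ID3 was 90.7, 130, 116 and 127 CPM in the same order and ID4 86.8, 89.1, 92.1 and 118 CPM. The 13S to 4S ratios were 0.671 for ID1, 0.564 for ID2, 1.40 for ID3 and 1.36 for ID4, so none reached 2-fold. Among 4380 genes of at least 20 CPM at both stages the median ratio was 0.940 and 1.67% passed 2-fold. Counting error was small beside these steps: the 95% exact Poisson interval of ID1 was 1096 to 1117 CPM at 4S. With 1 library per stage, age and library cannot be told apart.

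Shares of cells at equal depth went the same way. ID1 was found in 76.8% of thinned cells at 4S (95% Clopper-Pearson interval 75.5% to 78.1%) and 61.6% at 13S, and ID2 in 63.1% and 44.0%. ID3 went from 19.3% to 24.3% and ID4 from 17.4% to 22.4%. Without thinning the 4S and 13S shares were 91.0% and 82.8% for ID1, 81.5% and 65.6% for ID2, 45.2% and 48.6% for ID3, and 44.1% and 46.2% for ID4.

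Within gates the stages differed by gene. ID1 was lower at each step in the determination front (745, 458, 321 and 234 CPM), in caudal paraxial mesoderm (1078, 867, 462 and 441) and in intermediate mesoderm (1356, 988, 544 and 536). In contrast it was highest at 13S in somites (957 CPM, against 585 to 697 earlier) and in blood and vessel cells (1628 CPM, against 787 to 1343). ID2 was lower at each step only in intermediate mesoderm, from 1141 to 429 CPM, and in the notochord it was 97.0 CPM at 4S and 303 at 13S.

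ID4 moved in opposite ways. It was higher at each step in the caudal streak, NMP and somite gates, as given above. It was lower at each step in blood and vessel cells (150, 98.7, 75.5 and 58.4 CPM) and in surface ectoderm (147, 146, 93.3 and 77.4 CPM). ID3 in somites was 134 CPM at 4S and 236 to 247 CPM in the 3 later libraries. Part of the gate levels rests on few cells, such as 10 neural tube and 14 NMP cells at 4S. Some steps were small, such as that of ID4 in somites from 44.1 CPM at 7S to 45.8 at 10S, and their counting error is not given.

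**Figure D2:**
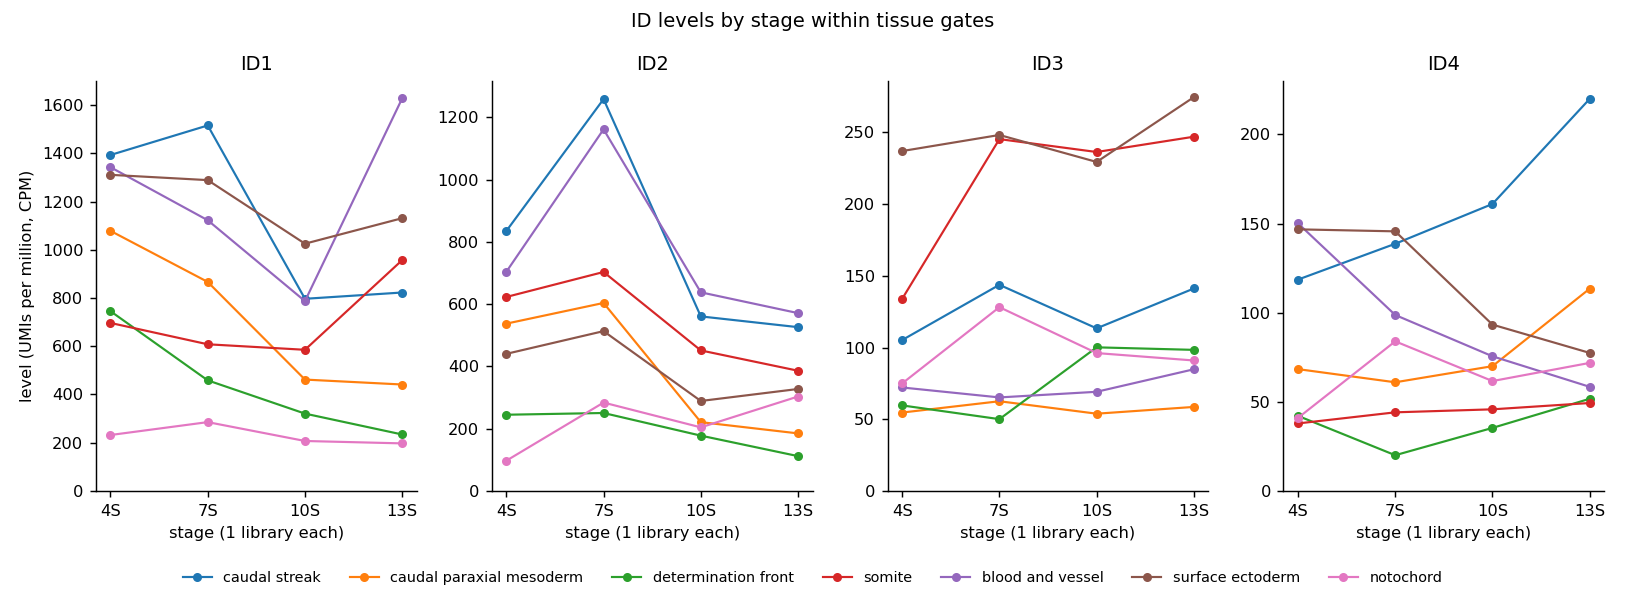
Levels of the ID genes (CPM) at 4S, 7S, 10S and 13S in 7 of the tissue gates, 1 library per stage. ID1 falls from 745 to 234 CPM in the determination front, while ID4 climbs from 119 to 220 CPM in the caudal streak and drops from 150 to 58.4 CPM in blood and vessel cells.

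BMP4 was spread thinly. Over all cells it stood at 23.9, 39.1, 38.8 and 43.1 CPM from 4S to 13S, and it was highest in the lateral plate gate (36.5, 97.0, 106 and 129 CPM), the surface ectoderm (58.7 to 77.4) and the caudal streak (34.9 to 66.7). At equal depth 14.0% to 26.5% of lateral plate cells held a BMP4 UMI, against 1.95% to 3.85% in blood and vessel cells. The determination front was lower still, at 0.444% to 1.63%.

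CHRD was concentrated in the notochord gate, which it defines, at 5112 to 9067 CPM. In the NMP gate it was 262, 341, 52.4 and 96.6 CPM from 4S to 13S. Of thinned cells that met no gate, 2.94% to 4.13% held a CHRD UMI, beside 1.98% to 5.19% of blood and vessel cells. Without thinning these shares were 5.97% to 8.67% and 4.76% to 10.9% (median depths 6340 and 6763.5 UMIs). The CHRD level was 13.8 to 42.6 CPM in cells that met no gate and 12.3 to 79.3 CPM in blood and vessel cells. Of 1594 cells with a single CHRD UMI, 5.14% also held NOTO, close to the 3.83% of cells without CHRD. Of the 1031 cells with 3 or more CHRD UMIs, 84.8% did. The CHRD-positive group thus joins notochord cells to cells with a single CHRD UMI, few of which held NOTO. Whether such single UMIs mark CHRD expression was not tested.

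Cells were then grouped by detection. BMP4 without CHRD was found in 4337 cells (17.1%, median 7675 UMIs), CHRD without BMP4 in 2284 (6222.5 UMIs), both in 453, and neither in 18305 (6427 UMIs). The first group was therefore deeper than the cells with neither. Groups were summed within each library and compared over libraries.

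In BMP4-positive cells ID2 and ID4 rose above the cells with neither gene and ID1 and ID3 were not called. ID2 was 764, 1211, 572 and 507 CPM in BMP4-positive cells from 4S to 13S and 667, 951, 425 and 327 CPM in cells with neither. It was higher in 4 of 4 libraries, although the 2 sets overlap across stages. The log2 difference was 0.42 ± 0.05 (SE, adjusted p = 0.000121, edgeR).

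ID4 was 106, 106, 102 and 132 CPM beside 85.7, 86.6, 92.3 and 117 CPM, again higher in 4 of 4 libraries (0.24 ± 0.04, adjusted p = 0.00139, edgeR). ID1 was 1267, 1243, 686 and 732 CPM beside 1131, 1157, 673 and 777 CPM, higher in 3 of 4 libraries (0.07, 95% interval -0.0045 to 0.14, adjusted p = 0.285, edgeR). ID3 was 95.6, 139, 115 and 138 CPM beside 91.2, 127, 117 and 127 CPM (0.09, 95% interval 0.00048 to 0.17, adjusted p = 0.244, edgeR). Thus 2 of the 4 genes were called, where 9.36% of 12313 genes were.

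These calls depend on how BMP4-positive cells are chosen. With at least 2 UMIs asked of every gating gene ID1 (0.19) and ID3 (0.24) were called and ID4 (0.20, adjusted p = 0.141, edgeR) was not. With groups set on thinned counts all 4 were called, ID1 at 0.18 and ID3 at 0.16. The ID2 difference was 0.20 in the 4S library and 0.35, 0.43 and 0.63 in those of 7S, 10S and 13S. For ID1 it was 0.16, 0.10, 0.03 and -0.09.

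CHRD-positive cells were lower for all 4 genes. ID1 was 748, 667, 476 and 449 CPM from 4S to 13S, against 1131, 1157, 673 and 777 CPM in cells with neither gene, and so lower in 4 of 4 libraries. It fell by 0.68 ± 0.04 on the log2 scale (SE, adjusted p = 4.98e-09, edgeR). ID2 was 441, 650, 346 and 289 CPM (-0.43 ± 0.05, adjusted p = 1.6e-05) and ID4 64.8, 76.4, 67.7 and 81.3 CPM (-0.43 ± 0.05, adjusted p = 2.33e-05), both lower in 4 of 4 libraries by edgeR.

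ID3 was 78.1, 134, 108 and 90.0 CPM, lower in 3 of 4 libraries (-0.21 ± 0.06, adjusted p = 0.0257, edgeR). That call was lost without the 10S (-0.25, adjusted p = 0.0631) or 13S library (-0.12, 0.227), with thinned groups (-0.17, 0.0976) and in DESeq2 (-0.22, 0.0777). All 4 genes were called where 16.8% of 12142 genes were.

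On mean levels the difference was larger in cells with NOTO for ID1, ID2 and ID4. ID2 was 229 CPM with NOTO and 535 without, and ID4 59.1 and 79.2 CPM. ID3 differed little, at 97.9 ± 19.3 CPM with NOTO and 105 ± 27.3 without (SD, n = 4). The 864 CHRD-positive cells with NOTO held ID1 at 253, 280, 206 and 193 CPM, whereas the 1420 without NOTO held 1006, 871, 591 and 580 CPM. When all cells with NOTO were left out, an alternative chosen after seeing the data, the differences from cells with neither gene were -0.33 for ID1, -0.20 for ID2, -0.22 for ID3 and -0.26 for ID4. All 4 stayed below the adjusted threshold of 0.05 in edgeR, ID3 narrowly (adjusted p = 0.0478). The number of genes called over the whole table went from 2040 to 289.

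**Figure D3:**
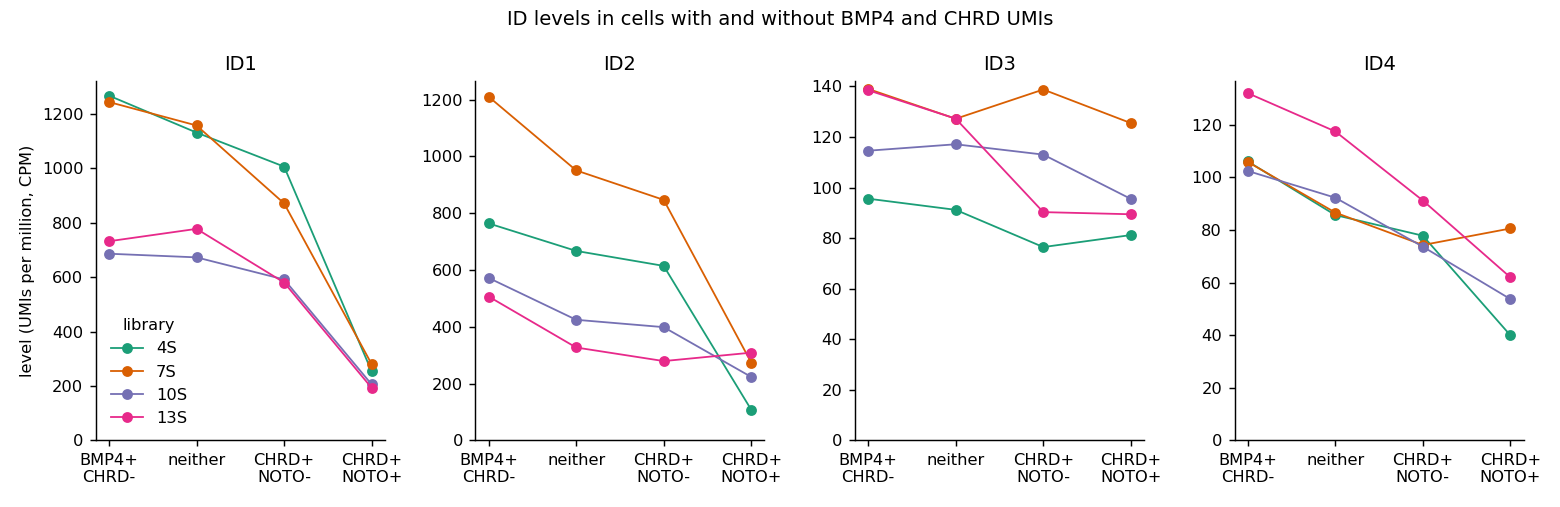
Level of each ID gene (CPM) in cells with BMP4 and no CHRD, with neither gene, and with CHRD and no BMP4 split by NOTO; each line joins the groups of 1 library. ID1 drops to 193 to 280 CPM in the CHRD-positive cells with NOTO, below the other 3 groups of every library.

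Set directly against each other, BMP4-positive cells were higher than CHRD-positive cells for all 4 genes, in 4 of 4 libraries each. The log2 differences were 0.83 ± 0.04 for ID2 (SE, adjusted p = 6.38e-10, edgeR), 0.74 ± 0.05 for ID1 (2.83e-08), 0.65 ± 0.06 for ID4 (1.57e-06) and 0.29 ± 0.08 for ID3 (0.0168). Of all 10434 genes tested, 21.7% were called. The ID3 call was lost without the 13S library (0.16, adjusted p = 0.128). Without cells that held NOTO the differences were 0.58, 0.36, 0.50 and 0.27 in the same order, all called by edgeR. The comparison reuses both groups above and adds no cells.

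The groups also differed in tissue. Caudal streak cells made up 21.4% to 26.0% of BMP4-positive cells per library, 11.8% to 18.2% of cells with neither and 5.04% to 9.61% of CHRD-positive cells. Somite cells made up 2.14% to 2.78%, 7.18% to 13.4% and 4.12% to 7.06%. Notochord cells made up 33.7% to 39.2% of CHRD-positive cells and cannot be in the other groups.

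The marker genes moved with the groups. Of 29 gate genes other than BMP4 and CHRD, 27 were tested, and 6 were higher and 14 lower in BMP4-positive cells, 5 and 12 in CHRD-positive cells, each against neither. Summed somite markers were 69.4 to 141 CPM in BMP4-positive cells, 390 to 423 in CHRD-positive cells and 359 to 540 in cells with neither. Summed caudal streak markers were 948 to 1465, 942 to 1392 and 595 to 1017 CPM, and lateral plate markers 35.6 to 56.5, 5.70 to 20.4 and 11.0 to 29.9 CPM. The caudal streak sum joins MSX1 and TBXT, which differed. In the same order of groups mean MSX1 was 887, 364 and 582 CPM and mean TBXT 308, 789 and 232 CPM. The paper lists TBXT among the genes of notochord cells. Apart from CHRD, which sets the groups, no defining marker was at 0 in them. The part of tissue make-up in the ID differences was not tested over all cells, and differences inside single gates follow.

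Inside the lateral plate gate none of the 4 genes was called, where 0.212% of 4240 genes were. ID1 was 780, 1983, 791 and 415 CPM in 114 BMP4-positive cells and 990, 867, 541 and 418 CPM in 126 BMP4-negative cells, higher in 2 of 4 libraries (0.35, 95% interval 0.14 to 0.57, adjusted p = 0.198, edgeR). Without the 4S library, which held 14 positive cells, it was called (0.60, adjusted p = 0.000258). ID2, highest in this tissue among the 12 compared gates, was 927, 1613, 974 and 735 beside 819, 1727, 849 and 704 CPM (0.10, 95% interval -0.07 to 0.27, edgeR). ID1 and ID4 (0.50) passed an unadjusted threshold of 0.05 in edgeR, and DESeq2 called none of the 4. The share of all genes past that unadjusted threshold is not given here, so no excess can be read from it.

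In the surface ectoderm gate none was called either, against 0.12% of 5014 genes. ID2 was 443, 675, 322 and 472 CPM in 190 BMP4-positive cells and 437, 440, 271 and 228 CPM in 323 negative cells, higher in 4 of 4 libraries (0.55 ± 0.12, adjusted p = 0.0556, edgeR). It was called without the 4S library (0.69, adjusted p = 4.31e-06) and ID1 without 7S (0.38, 0.0396). By edgeR 3 of the 4, ID1, ID2 and ID4, had an unadjusted p under 0.05, and DESeq2 called none. Here too the share of all genes with such an unadjusted p is not given, and the 0.12% refers to adjusted calls. ID3, high in this tissue, differed by 0.00 with a 95% interval of -0.26 to 0.26.

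The caudal streak gate held the most cells, 1048 with BMP4 and 2828 without. ID1 was 1466, 1542, 860 and 918 CPM in BMP4-positive cells and 1366, 1509, 766 and 765 CPM in the rest, higher in 4 of 4 libraries (0.14 ± 0.04, adjusted p = 0.0337, edgeR). ID2 was 822, 1249, 686 and 657 beside 840, 1261, 498 and 447 CPM (0.24 ± 0.06, adjusted p = 0.0145). The ID2 difference thus lay in 10S and 13S, and it was lost without either (0.16, adjusted p = 0.322 and 0.14, 0.301). The ID1 call was lost without 4S (0.14, 0.118), 10S (0.13, 0.187) or 13S (0.10, 0.583). In this gate 2 of the 4 genes were called where 1.11% of 9258 genes were, and DESeq2 called none. ID3 (0.26, adjusted p = 0.0675) and ID4 (-0.19, 0.192) were not called in full, but both were without 4S (0.35, 0.00295 and -0.26, 0.0255), all by edgeR.

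Other genes and depth moved with BMP4 inside this gate. The BMP4-positive cells had a median of 7647 UMIs and the others 6277. CDH1, an epithelial cadherin, was higher with BMP4 (0.84, adjusted p = 0.00772), and so was PAX2 of the intermediate mesoderm gate (0.97, 0.00813). CHRD (-0.90, adjusted p = 0.0119) and PAX6 of the neural tube gate (-2.57, 5.98e-07) were lower, all by edgeR. Their part in the ID differences was not tested. Median depth was 8870 and 7879.5 UMIs in the lateral plate and 9064 and 7695 in surface ectoderm, in BMP4-positive and BMP4-negative cells in that order.

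CHRD could not be tested inside the NMP gate, since only 14 of its 164 cells held CHRD, 2 to 5 per library.

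The ID genes were next read against the number of UMIs. With 0, 1, 2 and 3 or more CHRD UMIs in a cell, ID1 was 942 ± 259, 835 ± 248, 491 ± 157 and 211 ± 46.8 CPM (SD, n = 4). ID2 was 627, 580, 332 and 227 CPM. ID4 was 98.7, 93.1 and 64.3 CPM with 0 to 2 UMIs, and 35.1 to 73.8 CPM over the libraries with 3 or more. All 3 means were lower with each added UMI, and ID3 (117, 110, 88.4 and 102 CPM) was lowest at 2. The cells with 2 CHRD UMIs numbered 112.

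With BMP4 UMIs the order ran upwards. ID1 was 897 ± 232, 932 ± 315, 990 ± 289 and 1300 ± 554 CPM, ID2 574, 713, 784 and 932 CPM and ID3 114, 116, 132 and 157 CPM. ID4 was 93.0, 111, 113 and 95.2 CPM, with no gain in the mean at 3 or more. There its libraries ran from 29.3 to 127 CPM (SD 44.7), and the smallest held 22 cells. Neither a gain nor a fall of ID4 can be read from that step. The ranges of mean ± SD overlap at every step. Median depth was 6404 UMIs in cells without BMP4 and 9055 in those with 3 or more, and its part in the order was not tested.

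Within the notochord gate, 76 cells with 1 CHRD UMI held ID1 at 688 ± 221 CPM and 830 cells with 3 or more held 171 ± 47.8 CPM, with no overlap between libraries. ID4 was 136 ± 37.3 and 52.3 ± 20.2 CPM and ID2 337 ± 89.5 and 210 ± 105 CPM, whereas ID3 was 77.7 ± 15.3 and 101 ± 23.1 CPM. These values describe 4 libraries and were not tested. Median depth was 8479 UMIs in the cells with 1 CHRD UMI and 5342.5 in those with 3 or more. The part of depth and of cell make-up was not tested.

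Cells were also counted one by one at equal depth, over all cells. Cells with both ID1 and CHRD were 2.93% of all cells against 4.70% expected from the single shares, a ratio of 0.62, below 1 in 4 of 4 libraries. For ID2 it was 0.71 and for ID3 0.89, both in 4 of 4, and for ID4 0.71 in 3 of 4. With BMP4 the ratios ran from 1.10 (ID1) to 1.23 (ID4), above 1 in 4 of 4 libraries for ID1, ID2 and ID4 and in 3 of 4 for ID3.

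Inside single gates these ratios differed. In the notochord gate the CHRD ratios were 0.90 for ID1, 0.98 for ID2, 0.99 for ID3 and 0.94 for ID4, above 1 in 0, 1, 1 and 1 of 4 libraries. CHRD defines this gate and was found in 89.5% to 97.6% of its thinned cells. Its CHRD ratios thus had little room to differ from 1 and cannot be set against those over all cells. For the other gates the CHRD ratios follow in the same order of genes. In the somite gate they were 0.97, 1.15, 0.94 and 1.15 in the same order, above 1 in 1, 3, 2 and 3 libraries. In the caudal streak they were 0.87, 0.85, 1.03 and 0.77, above 1 in 1, 0, 1 and 0 libraries. In caudal paraxial mesoderm they were 1.06, 0.80, 0.40 and 0.54, above 1 in 3, 1, 1 and 0. The BMP4 ratios of ID1 to ID4 were 0.93, 0.94, 0.96 and 1.49 in somites, above 1 in 1, 2, 2 and 2 libraries. They were 1.03, 1.08, 1.22 and 1.03 in the caudal streak (3, 2, 4 and 3 libraries) and 1.12, 1.38, 1.02 and 1.39 in caudal paraxial mesoderm (3, 4, 2 and 3 libraries). In the notochord they were 1.24, 1.03, 1.08 and 2.12 (3, 2, 3 and 4 libraries). None of these ratios was tested.

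**Figure D4:**
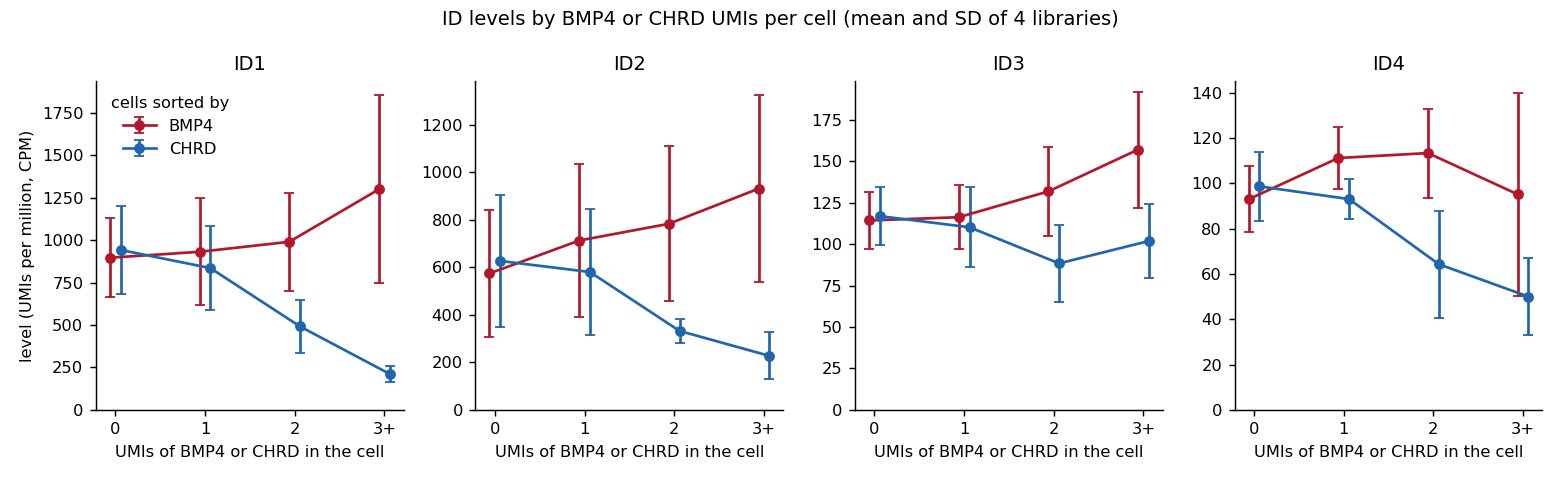
Level of each ID gene (CPM) in cells with 0, 1, 2 or at least 3 UMIs of BMP4 (red) or CHRD (blue), as mean and SD of 4 libraries. ID1 falls from 942 to 211 CPM with CHRD and stands at 1300 CPM with at least 3 BMP4 UMIs. Of the cells with at least 3 CHRD UMIs, 84.8% held NOTO.

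Other genes that respond to BMP were read in the same sums, from a list of 10 of which 9 were tested. In BMP4-positive cells 8 of 9 rose, with a median log2 difference of 0.92 where the median of all genes was 0.01, and none fell. Of all genes 9.36% were called there, in either direction. MSX1, HAND1 and TFAP2A help to define the caudal streak, lateral plate and surface ectoderm gates, so they also record tissue make-up. MSX1 and MSX2, homeobox transcription factors, rose by 0.65 ± 0.05 and 1.08 ± 0.12 (SE, adjusted p = 7.96e-07 and 3.54e-05, edgeR). BAMBI, a pseudoreceptor that dampens the pathway, rose by 0.71 and SMAD6 by 0.46. DLX5, GATA2, HAND1 and TFAP2A rose by 0.92 to 1.21. GATA3 was not called (0.35, adjusted p = 0.397). The ID differences of 0.07 to 0.42 all lay below those of these 8 genes.

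In CHRD-positive cells the same 8 genes fell and none rose, with a median of -0.62 beside -0.02 over all genes, where 16.8% of genes were called. MSX1 (-0.71) and DLX5 (-0.75) fell about as far as ID1 (-0.68). BAMBI (-0.22) lay near ID3 (-0.21). Both comparisons use the same cells with neither gene, so their mirrored directions are not independent.

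**Figure D5:**
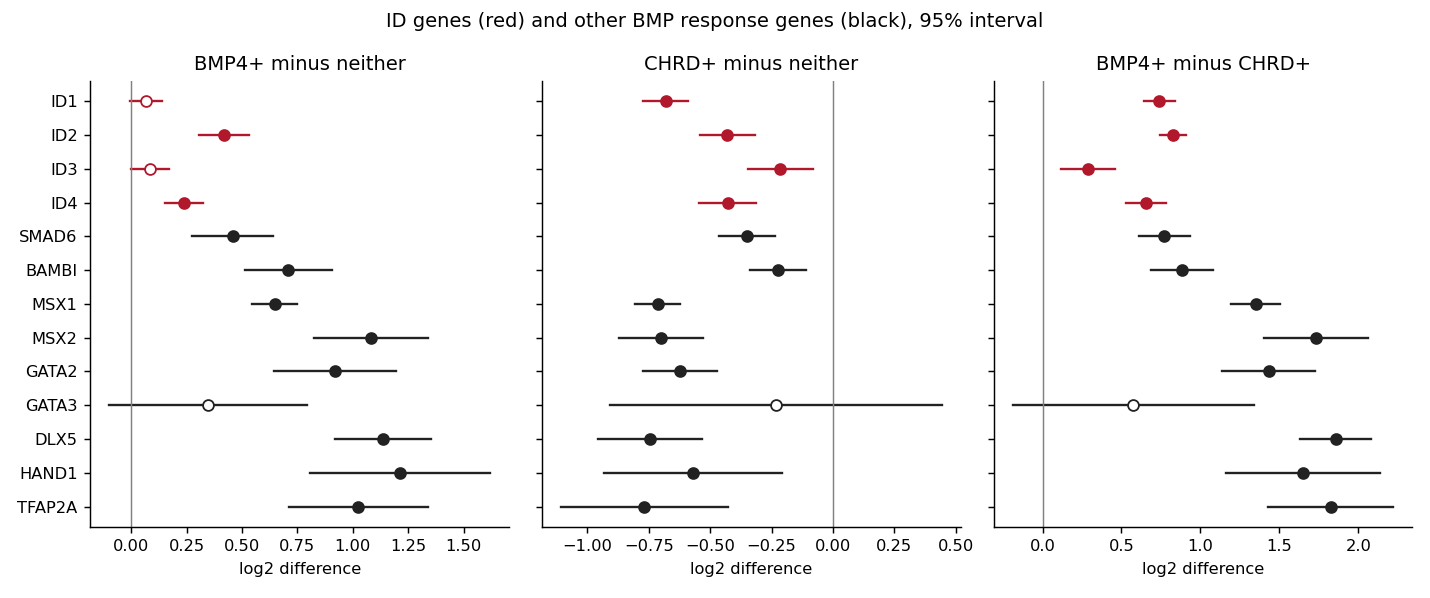
Fitted log2 differences with 95% intervals for the ID genes (red) and 9 other BMP response genes (black) in the 3 comparisons; filled points have an adjusted p under 0.05 (edgeR), open points do not. In BMP4-positive cells ID2 (0.42) and ID4 (0.24) are filled and sit to the left of MSX1 (0.65).

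Inside the surface ectoderm gate MSX1 (0.85 ± 0.12, adjusted p = 0.000112) and MSX2 (0.80 ± 0.16, 0.029) rose with BMP4 by edgeR, and 5 other response genes of the 7 tested did not pass. Inside the caudal streak MSX1 (0.22, adjusted p = 2.76e-05), MSX2 (0.53, 2.63e-05) and DLX5 (0.57, 0.000524) rose of 8 tested. In the lateral plate none of 7 was called.

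Ligands and antagonists differed between the groups as well. Besides BMP4, BMP2 (0.70), BMP7 (0.76) and GDF6 (1.51) rose in BMP4-positive cells and GDF3 fell (-0.68), of 6 ligands tested. GDF6 was near the floor, with 54 UMIs in BMP4-positive cells (1.40 CPM). NOG differed by 0.00 there (95% interval -0.31 to 0.31) and rose by 1.21 ± 0.24 in CHRD-positive cells (SE, adjusted p = 0.0018, edgeR). FST, follistatin, which binds activins and some BMPs, was 2.41 lower in BMP4-positive cells on the log2 scale. BMPER, a modulator of BMP signalling, was 1.31 higher there. In CHRD-positive cells FST was also called lower by edgeR, and so was BMP2 of 5 ligands tested.

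Of 6 receptors, BMPR1B (-1.10, adjusted p = 0.0193) and ACVR2B (-0.22, 0.00672) were lower in BMP4-positive cells by edgeR. In CHRD-positive cells ACVR2A (0.64, adjusted p = 0.000727) and ACVR2B (0.19, 0.0281) were higher. SMAD1, which carries the BMP signal, was higher in BMP4-positive cells (0.22, adjusted p = 0.00581, edgeR), and the median of the 3 SMADs tested was 0.22.

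The partners of the ID proteins were also measured. Of the E proteins, TCF3 fell (-0.27 ± 0.04, adjusted p = 0.000772) and TCF12 rose (0.20 ± 0.03, 0.000737) in BMP4-positive cells, and TCF12 rose in CHRD-positive cells (0.17, 0.00208), by edgeR. Of 9 tissue bHLH genes tested in BMP4-positive cells, HAND1 and HAND2 of the lateral plate rose. MSGN1, TCF15, TWIST1, TAL1 and NEUROG1 fell, with TCF15 at -2.12 and TWIST1 at -2.13. NEUROG1 held only 12 UMIs in BMP4-positive cells. Of 8 tested in CHRD-positive cells, 5 fell (HAND1, HAND2, MESP1, MSGN1 and TWIST1) and none rose by edgeR. Several of these genes define gates, so they also record the tissue make-up given above.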

How the data were processed

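Chick trunk cells were counted with the 10x 3′ kit. The deposited values are raw UMI counts per gene and cell. The authors aligned reads to the GRCg6a build with Cell Ranger 4.0.0 and took exonic and intronic UMIs from DropEst. The submitters' processing notes also name Scanpy. The authors removed doublets with Scrublet, so none were called here and cells meeting several gates were left out.

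Cells under 2500 UMIs or over 7.5% mitochondrial counts (13 genes) were removed. UMIs were summed per library and group. The quasi-likelihood test of edgeR 4.0.16 (R 4.3.3) was fitted over all genes passing filterByExpr, with TMM scaling and each library as a block. P-values were adjusted by Benjamini-Hochberg (threshold 0.05), and intervals use t quantiles. DESeq2 1.42.0 was an alternative, as were other gate thresholds, thinned counts (random seed 11), plain totals, no filter, no block and leaving out each library. The script was tested on simulated data.

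Both sums of a library come from the same embryos. Their deviations correlated in every pair (r from 0.153 to 0.709 across genes), so libraries pair the sums. Libraries differ in stage, so p-values speak only to these 4 pools. The edgeR test also shares the estimate of variation between genes. An interval can therefore be narrower than the spread of a gene's own 4 differences. For ID1 in the lateral plate with BMP4 these were -0.34, 1.19, 0.55 and -0.01 from 4S to 13S, beside an interval of 0.14 to 0.57. Poisson and Clopper-Pearson intervals (95%, exact) cover counting error only.

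Sums needed 10 cells per library. Preneural, cardiac and floor plate gates fell short and entered no test. Excluded genes were NOTO for NMP, and SOX2, NOTO and MSGN1 for caudal streak. They were RIPPLY2 for caudal paraxial mesoderm, RIPPLY2 and MSGN1 for somite, and LMO2 and PAX2 for lateral plate. Preneural excluded TBXT, PAX6 and NOTO, neural tube TBXT, and floor plate NOTO and CHRD. Endoderm excluded LMO2 and surface ectoderm SOX17. The genes named were the 4 ID genes, fixed lists of BMP pathway, E protein and bHLH genes, the gate genes, and the 5 genes most correlated with each ID gene, some of which are not reported here. Of the listed genes, 4 (SMAD4, SMAD7, TCF4 and NEUROG2) were not analysed here. Members and lists were chosen with earlier results of these data known.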

Additional observations from a re-analysis of the deposited data

Results flagged for a closer look

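ID3 in the somite gate was 134 CPM at 4S, apart from the 236 to 247 CPM of the other 3 libraries. ID4 at 13S stood apart over all cells (118 CPM, against 86.8 to 92.1) and in BMP4-positive cells (132 CPM, against 102 to 106). By Dixon's test at the 95% level, 3 of 88 sets of 4 values had such a library, and chance gives about 1 in 20.

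The gates with too few cells for a test also held ID transcripts. In the cardiac gate (GATA4 with TNNT2, TBX20 or NKX2-5, 114 cells) the median over libraries was 521 CPM for ID1, 1015 for ID2, 141 for ID3 and 115 for ID4. ID2 ran there from 940 to 1457 CPM. In 32 preneural cells (SOX2 and NKX1-2) the medians were 481 CPM for ID1, 312 for ID2, 27.6 for ID3 (from 8 UMIs) and 78.5 for ID4. In 44 floor plate cells (SHH and NKX6-2), none of them at 4S, they were 200.2 CPM for ID1, 93.9 for ID2, 253 for ID3 and 55.2 for ID4 (from 16 UMIs).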

How the results depend on the processing

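No ID difference that was called changed sign under the alternatives run. Some that were not called did, such as ID3 in surface ectoderm with BMP4 (0.00, and -0.26 to 0.19 with a library left out). Others were ID1 in the somite gate (-0.02, and 0.17 without 7S) and ID2 in the surface ectoderm gate (-0.28, and 0.30 on thinned gates). Gates on thinned counts and gates at 2 UMIs left only 7 of the 12 gates. Gate contrasts under these settings therefore use another mean of other gates and are not directly comparable with the main fit. Of the 6 grouped comparisons, 213 values of the ID genes kept their side of the threshold, 14 gained and 27 lost it. Of the gate contrasts, 445 kept it, 21 gained and 22 lost it. Without 4S, ID2 in the NMP gate (-0.72) and ID4 in intermediate mesoderm (-1.14) were called. So were ID4 in the notochord without 7S (-0.56), and ID1 in endoderm (-0.60) and ID4 in surface ectoderm (0.68) without 13S. Causes were not tested. Few cells per gate and single-UMI detection limit every comparison.

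For BMP4-positive cells against those with neither gene, gates at 2 UMIs gave ID1 0.19 and ID3 0.24 (called) and ID4 0.20 (lost). Gates on thinned counts gave ID1 0.18 and ID3 0.16 (called). For CHRD-positive cells, ID3 was lost on thinned gates (-0.17) and in DESeq2 (-0.22), and ran from -0.27 to -0.12 with each library left out. Against CHRD-positive cells, ID3 in BMP4-positive cells ran from 0.16 to 0.36.

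Without the library block (the pairing of sums from the same embryos) ID2 at 0.38 and ID4 at 0.24 were lost in BMP4-positive cells. In CHRD-positive cells all 4 were lost (-0.69, -0.47, -0.20 and -0.41 for ID1 to ID4). Between the positive groups ID1 (0.76), ID2 (0.84) and ID3 (0.28) were lost.

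In surface ectoderm, ID2 was called on thinned sums (0.65) and without a filter (0.53). Leaving out a library gave 0.10 to 0.38 for ID1 and 0.29 to 0.69 for ID2 there, and 0.092 to 0.60 for ID1 in the lateral plate. In the caudal streak, ID3 was called at 2 UMIs (0.71) and on thinned gates (0.34), and ID4 without a filter (-0.23). ID1 was lost on thinned gates (0.12), thinned sums (0.13), in DESeq2 (0.13), without a filter (0.093) and without the block (0.12), and ID2 in DESeq2 (0.23) and without the block (0.17). Leaving out a library gave 0.10 to 0.18 for ID1, 0.14 to 0.33 for ID2, 0.16 to 0.35 for ID3 and -0.26 to -0.11 for ID4. The lateral plate and surface ectoderm comparisons could not be run at 2 UMIs or on thinned gates, and the CHRD comparison in the NMP gate was not run.

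The number of genes called in BMP4-positive cells was 1153, and 750 on thinned sums, 633 in DESeq2, 23 without the block and 549 to 1313 with a library left out. In CHRD-positive cells it was 2040, and 3305 at 2 UMIs, 1309 in DESeq2, 225 without the block, 289 without NOTO cells (added after seeing the data) and 1148 to 1868 with a library left out. Between the positive groups it was 2260, and 1246 in DESeq2, 349 without the block, 807 without NOTO cells and 1176 to 2163. In the lateral plate it was 9, and 2 on thinned sums, 1 in DESeq2, 1 without the block and 2 to 21. In surface ectoderm it was 6, and 2 in DESeq2, 1 without the block and 4 to 14. In the caudal streak it was 103, and 38 on thinned gates, 38 on thinned sums, 13 in DESeq2, 1 without the block and 49 to 140.

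Genes called against the other gates numbered 421 in NMP, 865 in caudal streak, 1531 in caudal paraxial mesoderm, 1332 in determination front, 1429 in somite, 234 in intermediate mesoderm, 679 in lateral plate, 1887 in blood and vessel, 2378 in notochord, 788 in neural tube, 899 in endoderm and 2115 in surface ectoderm. Counts past 1.5-fold from these follow. Without 10S they were 190 in NMP, 433 in caudal streak, 675 in caudal paraxial mesoderm, 813 in determination front, 793 in somite, 92 in intermediate mesoderm, 307 in lateral plate, 1110 in blood and vessel, 1529 in notochord, 332 in neural tube, 585 in endoderm and 1333 in surface ectoderm. Without 13S they were 196 in NMP, 906 in caudal paraxial mesoderm, 117 in intermediate mesoderm and 426 in neural tube, and without 4S 583 in endoderm. On thinned sums they were 138 in NMP, 907 in caudal paraxial mesoderm, 691 in determination front, 878 in somite, 84 in intermediate mesoderm, 188 in lateral plate, 1034 in blood and vessel, 248 in neural tube, 308 in endoderm and 988 in surface ectoderm. Without the library block they were 204 in NMP, 329 in caudal streak, 581 in caudal paraxial mesoderm, 702 in determination front, 737 in somite, 123 in intermediate mesoderm, 359 in lateral plate, 1171 in blood and vessel, 1388 in notochord, 490 in neural tube and 1245 in surface ectoderm. Without a filter they were 1841 in caudal streak, 2496 in caudal paraxial mesoderm, 2255 in somite and 395 in intermediate mesoderm. Gates at 2 UMIs gave 1630 in caudal streak and gates on thinned counts 1501 in caudal streak. Both settings compared only 7 gates, so these counts come from another contrast.

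The log2 ratio of 13S to 4S was -0.58 for ID1, and -0.45 with each cell and -0.42 with each gate weighted equally. For ID2 it was -0.83, -0.74 and -0.57, and for ID3 0.49, 0.55 and 0.41. For ID4 it was 0.45, and 0.12 with gates weighted equally.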
